A study of Arabidopsis thaliana with 8 samples.

Results

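Expansins, xyloglucan endotransglucosylase/hydrolases (XTHs) and family 9 glycoside hydrolases (GH9) are proteins that loosen or trim the plant cell wall. They were taken from a microarray series on seedlings of Arabidopsis thaliana. Members were the genes whose symbol starts with EXPA, EXPB, EXLA, EXLB, EXP or XTH and a number, or with GH9A, GH9B or GH9C, and that have a probe set annotated to them alone. This gave 42 genes, each with 1 probe set, of 13350 genes with a single-gene probe set. The RefSeq gene table holds 87 genes whose symbol fits the pattern, and 4 further probe sets that are annotated to 2 family genes each were left out.

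Total RNA came from light-grown seedlings of the Col background at an age of 5 days, kept vertically on Murashige and Skoog medium, with 1 array per sample. The wild type group had 2 arrays. The aha1 group had 3 arrays, 2 of the allele aha1-6 and 1 of aha1-7, and the aha2 group had 3 arrays, 2 of aha2-4 and 1 of aha2-5. A string in the sample descriptions divides the arrays into a set of 3, with 1 array of each group, and a set of 5, which holds the other wild type array and both arrays of the rarer alleles. What the lesion in each allele is, the sources used here do not state.

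The proton pumps AHA1 and AHA2 sit in the plasma membrane and acidify the cell wall space. Expansins are the classic effectors of that acidity: they are most active at low pH and let the wall extend without cutting its polymers. XTHs cut xyloglucan, the tether between cellulose microfibrils, and rejoin the ends. GH9 enzymes are endoglucanases that act on less ordered glucan chains, and the membrane-bound GH9A group contains KORRIGAN, which is needed for cellulose synthesis.

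Levels are given as normalized log2 signal, that is log2 of the deposited signal plus 1 after quantile normalization, and differences are on the same scale. Tests are from limma across all 22746 probe sets that are not array controls, with the set as a term in the model. The labels do not say whether samples of a group were grown as separate cultures. The p-values therefore reflect only how far these samples spread, which may be technical. The aha1-7 array stood apart, with a median correlation with the others of 0.887 over the brighter 50% of probe sets, where the remaining arrays had 0.959 to 0.971. On that array short genes read low, with a Spearman's rho of 0.69 between its deviation and gene span across 5848 genes (genes are no independent replicates). Expansins and group II XTHs are short genes, so aha1 values are also given without it. Of markers fixed for shoot, root and root hair, only the shoot gene RCA and the root gene PYK10 had a named probe set. RCA had a mean log2 signal of 15.47 in aha1, 15.45 in aha2 and 15.35 in wild type, and PYK10 of 15.00, 14.85 and 14.98.

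The members fell into 10 alpha-expansins (EXPA), 4 beta-expansins (EXPB), 4 expansin-like genes (EXLA and EXLB), 6 XTHs of group II, 3 XTHs of group III, 2 GH9A, 10 GH9B and 3 GH9C genes. No XTH of group I had a named probe set of its own, and 8730 probe sets had no gene name. Of the 42, 28 had a mean log2 signal of 7 or more over all arrays, and 14 lay below. The dim ones were EXPA21, EXPA24, EXPB2, EXPB5, EXLA3, XTH26, XTH29, GH9A4, GH9B5, GH9B6, GH9B11, GH9B12, GH9B16 and GH9B17. The wild type arrays differed by a median of 0.27 on the log2 scale at the 28 brighter members and by 0.59 at the 14 dim ones, so differences at dim genes are less precise.

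No member passed the threshold of adjusted p 0.05 in any comparison, and neither did any other probe set, so the share called was 0% in each. Between aha1 and wild type, 4 members had an unadjusted p under 0.05 and were lower in aha1, where 2.2% of all probe sets did so, and 0 were higher, against 2.81%. In 9 of the 42 members every aha1 array lay below both wild type arrays (8.82% of all probe sets), and in 1 every aha1 array lay above both (9.99%). Those 9 were EXPA15, EXPB1, EXPB3, EXLA3, XTH16, XTH18, XTH19, GH9B6 and GH9C1, and the 1 was EXPA16, an alpha-expansin. Without the aha1-7 array 12 lay below (16.8% of all probe sets) and 4 above (16.7%). With each array set beside the wild type of its own set, all 3 aha1 arrays were lower in 15 members (16.7% of all probe sets) and higher in EXPA16, EXPB5 and GH9B7 (18.5%).

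Between aha2 and wild type, 0 members had an unadjusted p under 0.05 in limma, where 2.38% of all probe sets were higher and 1.66% lower at that level. In 6 members, EXPA8, EXPA9, EXPA20, EXPB1, XTH33 and GH9B18, every aha2 array lay above both wild type arrays, against 10.7% of all probe sets. In EXPA15 and XTH32 every aha2 array lay below both, against 10.2%. Against the wild type array of their own set, all 3 aha2 arrays were higher in 8 members (18.6% of all probe sets) and lower in 5 (19.3%). Between aha1 and aha2, 5 members were lower in aha1 at an unadjusted p under 0.05 (5.14% of all probe sets) and 1 was higher (5.49%). In 6 members, EXPA7, EXPA8, EXPA9, EXPA18, EXPB1 and EXPB3, every aha1 array lay below every aha2 array (8.09% of all probe sets). All 6 are expansins, and in 0 members was the order the other way round (8.56%). Without the aha1-7 array the count was 9 below (13.3% of all probe sets) and 0 above (13.3%). Of the 28 brighter members, EXPA7 and EXPB1 were below wild type of the set on all aha1 arrays and above it on all aha2 arrays (2.99% of probe sets of that brightness), and 0 had the reverse order (3.23%).

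In a fit to the brighter 50% of probe sets, 16 members were tested. In aha1 against wild type 5 of them, EXPA15, EXPB3, EXLB1, XTH18 and XTH19, were lower at an unadjusted p under 0.05 (2.49% of those probe sets), and 7 without the aha1-7 array (5.46%). In the other direction 0 were higher (2.61%), and 1 without that array (5.15%). Against wild type 1 member was higher in aha2 (1.93%) and 0 lower (1.15%), and without that array 2 were higher (5.08%) and 1 lower (4.67%). In aha1 against aha2 5 were lower (8.77%), and 6 without that array (10.2%), with 0 higher in either fit (9.08% and 10.5%). No member passed the adjusted threshold in these fits in limma. The share of probe sets that did pass was 0%, 0.0264% and 0.176% for aha1 against wild type, aha2 against wild type and aha1 against aha2, and 0.246%, 0.536% and 3.15% without the aha1-7 array. The smallest adjusted p of a member there was 0.0786, for XTH19 in aha1 against aha2.

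Median fitted differences are given by family. Over all 42 members, 22 were lower and 20 higher in aha1 than in wild type, where 49.6% and 50.4% of all probe sets were. In aha2 against wild type 22 were higher and 20 lower (48.3% and 51.7%), and in aha1 against aha2 28 were lower and 14 higher (48.3% and 51.7%). The 18 expansins and expansin-like genes had a median of -0.22 in aha1 against wild type, with 11 lower and 7 higher, and of 0.11 in aha2 against wild type, with 12 higher and 6 lower. In aha1 against aha2 their median was -0.34, with 14 lower and 4 higher. The 4 that were higher, EXPA21, EXPA24, EXPB2 and EXPB5, all belong to the 14 dim members. The 9 XTHs had medians of -0.20, -0.08 and -0.19 in the same order of comparisons, and the 15 GH9 genes had 0.07, -0.18 and 0.19. At the brighter members alone the medians were -0.27, 0.18 and -0.38 for 13 expansins, -0.29, -0.08 and -0.19 for 7 XTHs and 0.05, 0.03 and 0.06 for 8 GH9 genes, so the GH9 median in aha2 against wild type changed sign. Among these brighter members the fitted difference between aha1 and aha2 was negative at all 13 expansins, at all 7 XTHs and at 4 of the 8 GH9 genes. Not all of these signs held. Without the aha1-7 array EXPA20 was at 0.13, and the other brighter expansins and XTHs stayed negative. With each array's length trend removed, EXPA16 was at 0.18, EXPA20 at 0.11, XTH16 at 0.02 and XTH20 at 0.09, and the rest stayed negative. The medians also moved with single arrays. Without the aha1-7 array the expansin median over all 18 was -0.074 in aha1 against wild type and -0.20 in aha1 against aha2, and without the aha1-6 array of the second set it was -0.39 and -0.42. For aha2 against wild type it was -0.039 without the wild type array of the first set and 0.21 without that of the second. The XTH median in aha1 against aha2 was -0.39 without aha1-7 and -0.10 without the aha1-6 array of the second set. Over all probe sets the medians were 0.00, -0.01 and 0.02. These medians are descriptions of lists and carry no test.

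**Figure D1:**
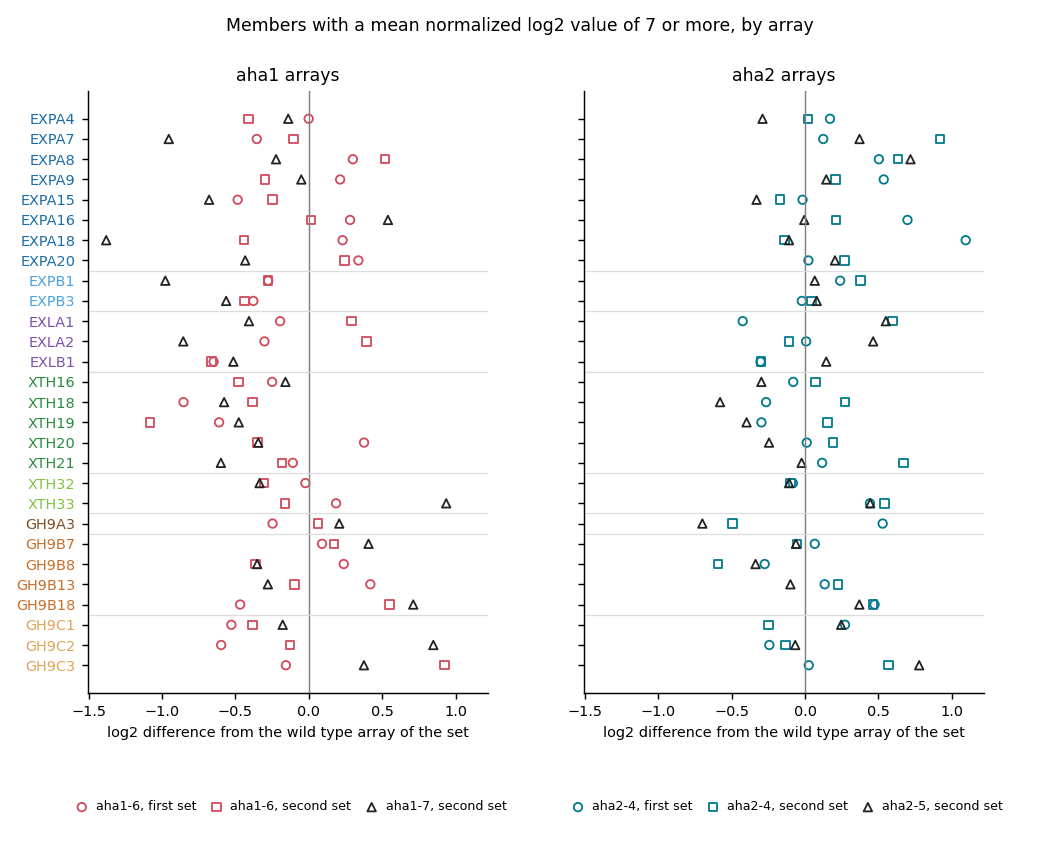
Log2 difference of each mutant array from the wild type array of its set (horizontal axis), for the 28 members with a mean of 7 or more (vertical axis, coloured by subfamily). Circles are arrays of the first set, squares those of the second set and triangles the aha1-7 and aha2-5 arrays. EXPB3, EXLB1, XTH18 and XTH19 lie left of 0 on all 3 aha1 arrays, and EXPA8 lies right of 0 on all 3 aha2 arrays.

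Among the beta-expansins, EXPB3 had the narrowest spread between arrays of a group. Beta-expansins are best known from grasses, where they include pollen allergens. EXPB3 was at 11.27 and 11.43 on the wild type arrays, 10.89 and 10.99 on the aha1-6 arrays, 10.87 on the aha1-7 array, 11.24 and 11.47 on the aha2-4 arrays and 11.51 on the aha2-5 array. All 3 aha1 arrays were low, and the wild type and aha2 arrays lay in the same range above them. In the deposited signal units the aha2 mean was 2736 ± 276 (SD, n = 3), the wild type mean 2611 ± 198 (SD, n = 2) and the aha1 mean 1957 ± 79.9 (SD, n = 3). The difference between aha1 and wild type was -0.46 (SE 0.17), a fold of 1.37 (limma, unadjusted p = 0.0339, adjusted p = 0.937). Without the aha1-7 array it was -0.41 (SE 0.13). Between aha1 and aha2 it was -0.49 (SE 0.15; adjusted p = 0.402). In aha2 against wild type the fitted difference was 0.04, with a 95% interval from -0.37 to 0.45.

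EXPB1 lay below wild type in aha1 and above it in aha2. It was at 9.45 and 9.67 in wild type, 9.17 and 9.39 on the aha1-6 arrays, 8.69 on aha1-7, 9.69 and 10.04 on the aha2-4 arrays and 9.73 on aha2-5. The 3 groups did not overlap, but the gap between the lowest aha2 array and the highest wild type array was small. The difference between aha1 and aha2 was -0.74 (SE 0.24; limma, unadjusted p = 0.022, adjusted p = 0.413), and -0.50 (SE 0.15) without the aha1-7 array, which was the lowest of all. The fitted difference from wild type was -0.49 in aha1, with an interval from -1.15 to 0.18 (-0.27 without the aha1-7 array), and 0.25 in aha2, from -0.41 to 0.91. The other 2 beta-expansins, EXPB2 and EXPB5, were dim, with group means of 5.46 to 6.11 and 5.49 to 6.04. EXPB5, singled out after its values were seen, was the 1 member higher in aha1 than in aha2 at an unadjusted p under 0.05, by 0.54 (SE 0.19; limma, adjusted p = 0.438), with group ranges that overlapped.

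**Figure D2:**
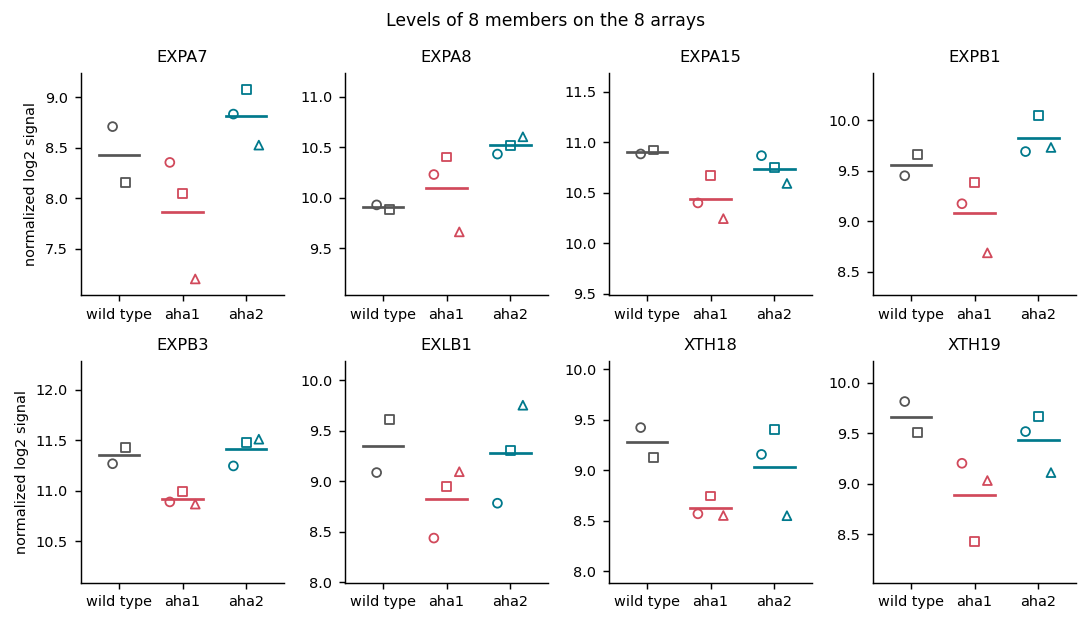
Normalized log2 signal (vertical axes, each spanning the same range) of 8 members on every array, by group. Symbols are circles for the first set, squares for the second set and triangles for the aha1-7 and aha2-5 arrays, and bars are group means. EXPB3 shows 3 aha1 arrays at 10.87 to 10.99 below all others, and EXPA8 shows 3 aha2 arrays at 10.43 to 10.60 above both wild type arrays.

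EXPA7 and EXPA18 are alpha-expansins known from growing root hairs. EXPA7 was at 8.71 and 8.15 in wild type, 8.35 and 8.05 on the aha1-6 arrays, 7.20 on aha1-7, 8.83 and 9.07 on the aha2-4 arrays and 8.52 on aha2-5. All aha1 arrays were below all aha2 arrays, while wild type overlapped both. The difference between aha1 and aha2 was -0.94 (SE 0.31), a fold of 1.92 (limma, unadjusted p = 0.0228, adjusted p = 0.415), and -0.65 (SE 0.24) without the aha1-7 array. Against wild type EXPA7 differed by -0.49 (SE 0.35) in aha1 and by 0.45 (SE 0.35) in aha2, neither of which had an unadjusted p under 0.05. The first was -0.23 without the aha1-7 array. The second was 0.25 without the aha2-4 array of the second set and 0.70 without that of the first. Both differences use the same wild type arrays.

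EXPA18 was at 8.18 and 9.34 in wild type, 8.41 and 8.90 on the aha1-6 arrays, 7.96 on aha1-7, and 9.28, 9.20 and 9.23 on the aha2 arrays. The aha2 arrays lay close together above all aha1 arrays, and the wild type arrays were 1.16 apart. The interval of its difference from wild type ran from -1.37 to 0.59 in aha1 and from -0.56 to 1.40 in aha2. The other measured XTH or expansin named for root hairs on the fixed list, XTH26, was at 1.86 to 3.31 over all arrays, near the bottom of the range. None of the 6 root hair markers outside the families had a named probe set. In whole seedlings, fewer root hair cells and less RNA per root hair cell cannot be told apart.

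Of the remaining alpha-expansins, EXPA8 was highest in aha2. It was at 9.93 and 9.88 in wild type, 10.43 and 10.52 on the aha2-4 arrays, 10.60 on aha2-5, 10.23 and 10.40 on the aha1-6 arrays and 9.66 on aha1-7. All aha2 arrays were above wild type by 0.50 to 0.72, the aha1-6 arrays lay between the groups, and the aha1-7 array was below wild type. The mean signal was 965 ± 24.6 (SD, n = 2) in wild type and 1436 ± 86.4 (SD, n = 3) in aha2. The difference between aha2 and wild type was 0.62 (SE 0.26), a fold of 1.53 (limma, unadjusted p = 0.0577, adjusted p = 0.9998). When aha1-7 was left out of the fit, the same difference was 0.60 with an SE of 0.13 (limma, unadjusted p = 0.00749, adjusted p = 0.587), and aha1-6 against wild type was 0.41 (SE 0.14).

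EXPA9 was at 9.79 and 10.04 in wild type, 10.01, 9.75 and 9.99 in aha1 and 10.33, 10.25 and 10.19 in aha2. The aha2 arrays lay above both other groups, which overlapped each other. EXPA15 was at 10.88 and 10.92 in wild type, 10.40, 10.67 and 10.24 in aha1 and 10.87, 10.75 and 10.59 in aha2. Both mutants were below wild type on every array, aha1 by 0.46 and aha2 by 0.16 in the fit. EXPA16 was at 7.75 and 7.78 in wild type and 8.03, 7.80 and 8.32 in aha1, a difference of 0.31 (SE 0.26; limma, adjusted p = 0.937) that shrank to 0.15 without the aha1-7 array. EXPA4 and EXPA20 overlapped between aha1 and wild type. EXPA4 had a fitted difference of -0.15 in aha1 against wild type, with an interval from -0.65 to 0.35, and of 0.00 in aha2, from -0.49 to 0.50. EXPA20 was at 7.44 to 8.39 over all arrays. EXPA21 and EXPA24 were dim, at 2.38 to 5.45 and 2.78 to 5.35.

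The expansin-like genes resemble expansins in sequence, and no wall-loosening activity is established for them. All 4 had a negative fitted difference in aha1 against wild type, from -2.16 to -0.17, and in aha1 against aha2, from -1.86 to -0.34. EXLA1 and EXLA2 turned positive against wild type when the aha1-7 array was left out, at 0.047 and 0.043, while EXLA3 was at -1.77 and EXLB1 at -0.65. Against aha2 the values without that array were -0.10 for EXLA1, -0.031 for EXLA2, -1.43 for EXLA3 and -0.48 for EXLB1. EXLB1 was at 9.08 and 9.61 in wild type, 8.44 and 8.94 on the aha1-6 arrays, 9.09 on aha1-7, 8.78 and 9.31 on the aha2-4 arrays and 9.75 on aha2-5. The groups overlapped and in each group the array of the first set was the lowest, while each aha1 array was below the wild type array of its set, by 0.51 to 0.66. The difference was -0.63 (SE 0.21), a fold of 1.54 (limma, unadjusted p = 0.0233, adjusted p = 0.917). Between aha1 and aha2 it was -0.45 (SE 0.18; limma, unadjusted p = 0.0476, adjusted p = 0.468). With each array's length trend removed it was -0.30.

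EXLA3, singled out after its values were seen, had the lowest unadjusted p of the members in aha1 against wild type. Its signal was 65.0 and 49.6 in wild type, 30.7, 9.6 and 4.2 in aha1 and 63.3, 42.9 and 21.9 in aha2. All aha1 arrays were below wild type, with the aha1-7 array lowest. The difference was -2.16 (SE 0.61; limma, unadjusted p = 0.012, adjusted p = 0.831). The aha2 arrays overlapped both other groups. EXLA1, which lies next but 1 to EXLA3 in the genome, was at 8.76 and 7.98 in wild type, 8.56, 8.27 and 7.57 in aha1 and 8.33, 8.58 and 8.53 in aha2, and its groups overlapped. EXLA2 also overlapped, at 7.41 to 8.73 over all arrays.

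Among the group II XTHs, the neighbouring genes XTH18 and XTH19, both known from roots, were lower in aha1. XTH19 was at 9.82 and 9.51 in wild type, 9.20 and 8.43 on the aha1-6 arrays, 9.03 on aha1-7, 9.52 and 9.67 on the aha2-4 arrays and 9.11 on aha2-5. All aha1 arrays were below both wild type arrays, and the aha2-5 array overlapped aha1. The difference between aha1 and wild type was -0.72 (SE 0.28), a fold of 1.65 (limma, unadjusted p = 0.0415, adjusted p = 0.937), and -0.84 (SE 0.28) without the aha1-7 array. In aha2 against wild type it was -0.18, with an interval from -0.87 to 0.50.

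XTH18 was at 9.42 and 9.13 in wild type, 8.57 and 8.74 on the aha1-6 arrays, 8.55 on aha1-7, 9.15 and 9.40 on the aha2-4 arrays and 8.55 on aha2-5. The aha1 arrays were low together, and the aha2-5 array was as low as they were while both aha2-4 arrays lay in the wild type range. The difference was -0.63 in aha1 against wild type, with an interval from -1.35 to 0.08. In aha2 against wild type it was -0.22 (SE 0.29; limma, adjusted p = 0.9998), and it came to 0.00 without the aha2-5 array. These neighbours are close relatives, and how far their probes tell them apart was not tested.

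XTH16 was at 10.67 and 10.54 in wild type, 10.42, 10.06 and 10.38 in aha1 and 10.59, 10.61 and 10.24 in aha2. The aha1 arrays were below wild type, and aha2 overlapped both. XTH20, at 8.30 to 8.92, and XTH21, at 6.89 to 8.15, overlapped between all groups. On each aha1 array except 1, all 5 group II XTHs of mean 7 or more were below wild type of the set, and on the aha1-6 array of the first set 4 of the 5 were. On the aha2-4 array of the second set all 5 were above, and on the aha2-5 array all 5 were below, although both are aha2 arrays compared with the same wild type array. Of all 15365 probe sets of mean 7 or more, 7437 were above on that aha2-4 array and 7769 below on aha2-5. Below on the aha1-6 arrays were 7771 and 7703 of them, and 7159 on aha1-7.

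Of the group III XTHs, XTH32 was at 11.45 and 11.38 in wild type, 11.43, 11.08 and 11.05 in aha1 and 11.37, 11.28 and 11.27 in aha2. Its fitted differences from wild type were -0.20 in aha1 and -0.08 in aha2, the second with an interval from -0.50 to 0.34. XTH33, an XTH with a predicted membrane anchor, was at 6.59 and 6.79 in wild type, 6.78, 6.63 and 7.73 in aha1 and 7.04, 7.34 and 7.24 in aha2. Every aha2 array was above the wild type array of its set by 0.44 to 0.54, and aha1 exceeded wild type mainly on the aha1-7 array. The difference from wild type was 0.46 (SE 0.34) in aha2 and 0.30 (SE 0.34) in aha1 (limma, adjusted p = 0.9998 and 0.937). Without the aha1-7 array these were 0.49 (SE 0.16) and 0.01. XTH29 was dim, at 2.11 to 6.19.

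**Figure D3:**
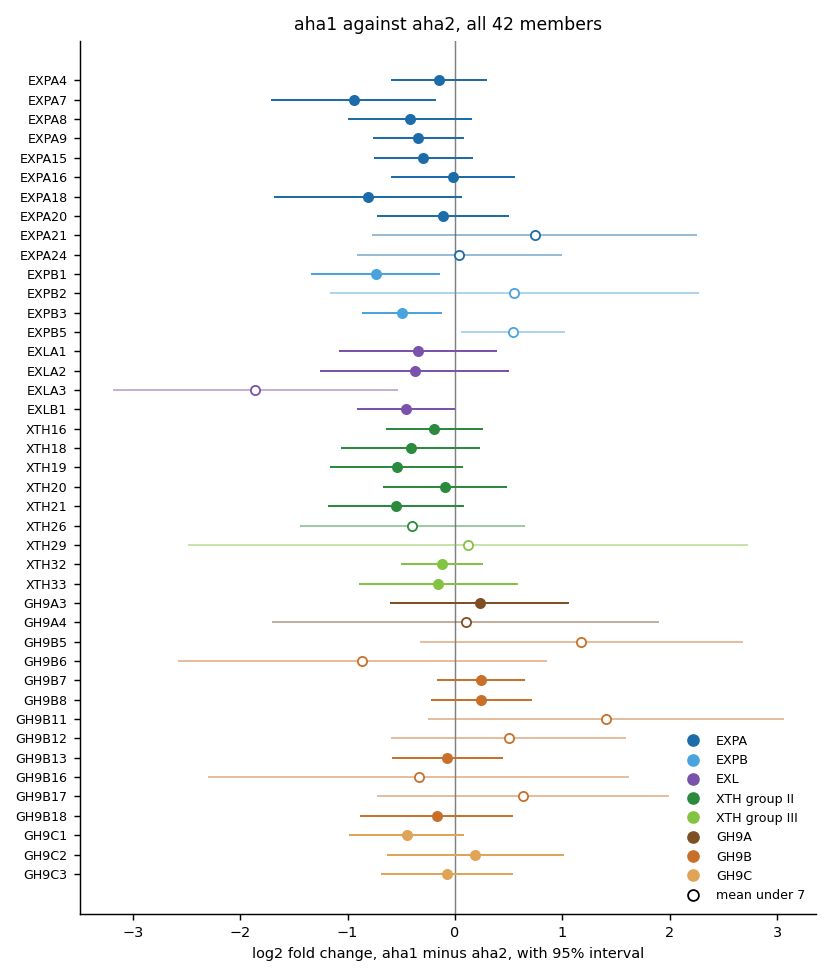
Fitted log2 fold change of aha1 minus aha2 (horizontal axis) with its 95% interval for all 42 members (vertical axis), coloured by subfamily, with open symbols for the 14 dim members. The filled expansin symbols lie left of 0, and the filled GH9 symbols lie on both sides, from -0.45 to 0.24.

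The GH9 glucanases did not share a direction. In aha1 against wild type 11 of the 15 were higher and 4 lower (50.4% and 49.6% of all probe sets). In aha2 against wild type 6 were higher and 9 lower (48.3% and 51.7%). Among the 8 brighter GH9 genes 5 were higher and 3 lower in aha1, and 4 and 4 in aha2. At an unadjusted p under 0.05 in limma there were 0 either way. The shares of all probe sets at that level were 2.81% higher and 2.2% lower in aha1, and 2.38% and 1.66% in aha2. GH9B7, a secreted enzyme of the GH9B group, was at 12.00 and 12.15 in wild type, 12.09, 12.32 and 12.56 in aha1 and 12.06, 12.09 and 12.09 in aha2. The aha1-7 array and the aha1-6 array of the second set lay above all others, and aha1 differed from aha2 by 0.24 (SE 0.16; limma, adjusted p = 0.576), or by 0.14 without the aha1-7 array. GH9B8 was at 9.19 and 9.91 in wild type, 9.43, 9.55 and 9.56 in aha1 and 8.92, 9.32 and 9.58 in aha2. Each aha2 array was below the wild type array of its set, by 0.28 to 0.59, and the fitted difference was -0.35 (SE 0.21; limma, adjusted p = 0.9998). It was -0.53 without the wild type array of the first set and -0.14 without that of the second. Between aha1 and aha2 it was 0.24 (SE 0.19; limma, adjusted p = 0.617), and 0.082 without the aha1-6 array of the first set. GH9B13 was at 9.45 to 10.11 and GH9B18 at 6.43 to 7.49 over all arrays.

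The GH9C enzymes carry a carbohydrate-binding module. GH9C2 was at 11.64 and 11.35 in wild type, 11.04 and 11.22 on the aha1-6 arrays, 12.20 on aha1-7 and 11.39, 11.21 and 11.28 in aha2. The aha1 alleles lay on opposite sides of wild type, and the group difference of -0.03 became -0.36 (SE 0.17) without the aha1-7 array. In aha2 against wild type it was -0.21 (SE 0.37; limma, adjusted p = 0.9998). GH9C1 was at 8.63 and 8.35 in wild type, 8.10, 7.97 and 8.17 in aha1 and 8.90, 8.10 and 8.60 in aha2, with all aha1 arrays below wild type and aha2 overlapping both. GH9C3, at 6.56 to 7.59, differed from wild type by 0.29 (SE 0.28) in aha1 and by 0.37 in aha2 (limma, adjusted p = 0.937 and 0.9998).

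Of the GH9A group, GH9A3, a relative of KORRIGAN also called KOR3, was at 6.60 and 7.60 in wild type, 6.36, 7.66 and 7.81 in aha1 and 7.13, 7.10 and 6.90 in aha2. Its wild type arrays spanned most of the range, and the fitted difference between aha1 and aha2 was 0.23 (SE 0.34; limma, adjusted p = 0.783). For GH9A3 this was 0.014 without the aha2-5 array, 0.070 without aha1-7, 0.13 without the aha2-4 array of the second set and 0.15 without the aha1-6 array of that set. Without the first-set array of aha1 or of aha2 it was 0.57 or 0.68. The dim GH9 genes GH9A4, GH9B5, GH9B6, GH9B11, GH9B12, GH9B16 and GH9B17 ranged from 1.46 to 7.17. GH9B6 was below wild type on every aha1 array, at signals of 15.9, 7.85 and 9.45 against 33.1 and 29.1.

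The alleles are described side by side. Each array was set beside the wild type array of its set. The median over the 18 expansins and expansin-like genes was then -0.10 and -0.18 on the aha1-6 arrays and -0.47 on aha1-7. Lower than wild type were 10 and 11 of the 18 on the aha1-6 arrays and 16 on aha1-7. Of all 22746 probe sets 11403, 11353 and 10653 were lower in the same order, with medians of -0.0012, 0 and 0.061. Over the 15 GH9 genes the median was -0.16, -0.10 and 0.21 in the same order. On the aha2-4 arrays the expansin median was 0.07 and 0.13, and on the aha2-5 array it was 0.07. The alleles aha1-7 and aha2-5 have 1 array each, so no allele was tested.

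Gene span, from start to end in the RefSeq table with introns, had a median of 1629 bases in the EXPA genes, 1386 in the expansin-like genes, 1555 in the group II XTHs, 2429 in GH9B and 4213 in GH9C, against 2381 over named brighter genes. Among the 28 brighter members, 16 fell in the shortest of 3 equal length classes of named genes. Their median on the aha1-7 array was -0.55 from the mean of the other arrays, where all 1951 named genes of that class had -0.63. The 6 members of the middle class had a median of 0.19, where its 1948 genes had -0.021. The 6 members of the longest class had -0.015, where its 1949 genes had 0.41. Across the 28 members, which share that array, rho between gene span and this deviation was 0.56. With each array's trend against gene length removed, the difference between aha1 and wild type was -0.47 for EXPB3, -0.53 for EXLB1 and -0.61 for XTH19. Their unadjusted p-values in limma were then 0.0326, 0.0633 and 0.107, so of these only EXPB3 stayed under 0.05. The median of the expansins in aha1 against aha2 was then -0.17. How far gene length sets the expansin and XTH values on the aha1-7 array was not tested beyond this.

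**Figure D4:**
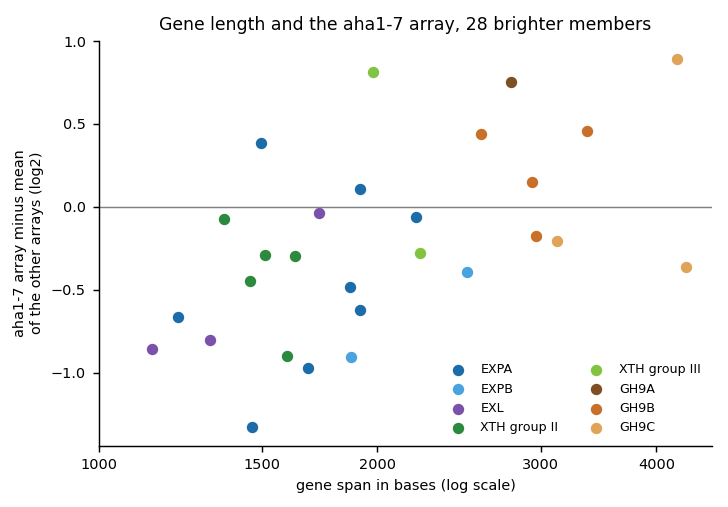
Deviation of the aha1-7 array from the mean of the other arrays (vertical axis, log2) against gene span in bases (horizontal axis, log scale) for the 28 members with a mean of 7 or more. The shortest members lie mostly under 0, EXPA7 lowest at -1.33, and 5 of the 8 GH9 members lie above 0.

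Other wall genes were barely covered. Of 12 genes fixed for xyloglucan synthesis and trimming only CSLC4, a glucan synthase that makes the xyloglucan backbone, had a named probe set, and it differed from wild type by 0.24 (SE 0.24) in aha1 and by -0.04 (SE 0.24) in aha2. Of 21 genes for pectin and mannan remodelling 3 were measured, and 0 had an unadjusted p under 0.05 in limma in either mutant. ADPG1, a polygalacturonase, differed by -1.33 (SE 0.89) in aha1 and -0.96 (SE 0.89) in aha2, and the pectin methylesterase gene PME35 (PME61 in RefSeq) by 0.38 (SE 0.58) and 0.26 (SE 0.58), both with mean log2 levels under 7. EXGT-A3, the group III gene XTH27 under another symbol and so no member, was 0.45 (SE 0.18) higher in aha1 than in aha2 (limma, unadjusted p = 0.0466, adjusted p = 0.467), with 13.18 on the aha1-7 array and 12.23 to 12.75 on the others. AT4G30380, which RefSeq also calls EXLB2 and which is likewise no member, went the other way from the measured expansin-like genes. It was dim, at 4.74 and 2.27 in wild type, 5.21, 3.23 and 3.03 in aha1 and 2.86, 2.43 and 2.71 in aha2. All aha1 arrays of AT4G30380 were above all aha2 arrays, by 1.15 (SE 0.46) in the fit (limma, unadjusted p = 0.0465, adjusted p = 0.467), and wild type overlapped both.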

How the data were processed

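Biotin-labelled RNA was measured on 8 arrays. The deposited values are linear signal intensity, 1 per probe set. The submitters' processing notes name Affymetrix Expression Console 1.1, with no summarisation algorithm stated in the sources used here. The deposited intensity had a 2% trimmed mean of 1000.1 on every array. The number of arrays limits the precision.

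Values were taken as log2(value + 1), quantile normalized over 22810 probe sets, and fitted without the 64 controls in limma 3.58.1 (R 4.3.3; lmFit, eBayes, group and set as terms, 4 residual degrees of freedom), with Benjamini-Hochberg adjustment over all tested. The fit was tested on simulated data. Fold changes are on the log2(value + 1) scale. Gene names came from the platform's annotation, updated through RefSeq (TAIR10.1): 13513 had 1 gene, 503 several and 8730 none. No member had more than 1 single-gene probe set.

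The members and lists were chosen with earlier results of these data known. Full statistics were given to members of mean 7 or more with an unadjusted p under 0.05, up to 6 per direction and comparison, filled up to 3 by fold change. The labels give no replicate numbers, and the set was the block. Array weights, other normalizations and left-out arrays were tried as alternatives. AHA1 and AHA2 have no named probe set, so genotypes were taken from the labels unchecked. No column of values was left unused.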

Additional observations from a re-analysis of the deposited data

Results flagged for a closer look

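EXPA7 and EXPB1 were flagged because all 3 aha1 arrays lay below, and all 3 aha2 arrays above, the wild type array of their set. The difference between aha1 and aha2 was -0.94 for EXPA7 and -0.74 for EXPB1, with adjusted p of 0.415 and 0.413 in limma. Of the 28 members of mean 7 or more, 2 had this order and 0 the opposite, against 2.99% and 3.23% of all probe sets of that brightness. For EXPA7 the aha1 arrays differed from wild type by -0.35, -0.11 and -0.95 and the aha2 arrays by 0.12, 0.92 and 0.37, and for EXPB1 the aha1 arrays by -0.28, -0.28 and -0.98 and the aha2 arrays by 0.24, 0.38 and 0.07. The aha1-7 array was the lowest of the aha1 arrays at both, and both are shorter than the median named gene. Their values without that array were -0.65 and -0.50. With each array's length trend removed they were -0.74 and -0.62 (limma, unadjusted p = 0.0239 and 0.0247, adjusted p = 0.49 for both).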

How the results depend on the processing

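No member passed the adjusted threshold under any alternative run. Over all probe sets, leaving out the dimmest 50% gave 20 calls for aha1 against aha2 and 3 for aha2 against wild type, and leaving out the aha1-7 array as well, an alternative chosen after seeing the data, gave 358, 61 and 28 (aha1 against wild type). The unadjusted p-values in these fits also changed. For EXPB3 in aha1 against wild type the difference was -0.457 both in the main fit and without the dimmest 50%. Its SE was 0.167 and 0.169, and its unadjusted p in limma 0.0339 and 0.0231. Each fit estimates the spread that limma pools over probe sets from its own probe sets. How much of the changes came from this was not tested.

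Median differences also moved. Leaving out the dimmest 50% kept 16 members, and their fitted differences were those of the main fit. The medians of that fit therefore moved only because fewer members were counted. Without the dimmest 50% the aha1 to wild type median was -0.25 for all members, -0.42 for expansins and -0.46 for XTHs, and the aha1 to aha2 median was -0.32 for all members. Without the aha1-7 array too, these were -0.24 (all members) and -0.49 (XTHs) against wild type and -0.25 (all members) against aha2, where GH9 had 0.094. With the length trend removed, aha1 against aha2 gave -0.17 for expansins and -0.0055 for GH9. Array weights gave GH9 0.095, and with 16 added before the logarithm GH9 had -0.025 in aha2 against wild type. With no set block the GH9 median was 0.17 in aha1 and -0.056 in aha2 against wild type, and with the set as a random block -0.069 in aha2.

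Members at an unadjusted p under 0.05 in limma are given with the share of all probe sets of that fit. In aha1 against wild type, 2 were lower with the length trend removed (2.29%), and 7 lower (5.46%) and 1 higher (5.15%) without the dimmest 50% and aha1-7. In aha2 against wild type, 1 was higher with 16 added (2.35%), without the dimmest 50% (1.93%), with no set block (2.13%), with a random block (2.2%) and with array weights (4.5%), and 2 were higher (5.08%) and 1 lower (4.67%) without the dimmest 50% and aha1-7. In aha1 against aha2, 0 were higher with 16 added (5.69%), without the dimmest 50% (9.08%, or 10.5% without aha1-7 too), with no set block (4.66%) and with a random block (4.87%).

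Leaving out 1 array at a time, medians in aha1 against wild type ran from -0.21 to -0.035 for all members, from -0.39 to -0.074 for expansins, from -0.34 to -0.16 for XTHs and from -0.083 (without the second wild type array) to 0.32 (without the first-set aha1-6 array) for GH9. The aha2 to wild type medians ran from -0.066 to 0.096 for all members, from -0.039 to 0.21 for expansins, from -0.12 to 0.15 for XTHs (each of these from without the first to without the second wild type array, except the 0.096, without the first-set aha2-4 array) and from -0.17 to 0.095 (without the first-set aha2-4 array) for GH9. In aha1 against aha2 they ran from -0.26 to -0.10 for all members, from -0.42 to -0.20 for expansins, from -0.39 to -0.10 for XTHs and from 0.069 (without the first-set aha2-4 array) to 0.33 (without the first-set aha1-6 array) for GH9. Counts at an unadjusted p under 0.05 ran from 1 to 4 lower (1.47% to 3.46% of all probe sets) and 0 to 2 higher (1.78% to 3.63%) in aha1 against wild type, from 0 to 2 higher (1.7% to 3.6%) and 0 to 1 lower (1.47% to 2.66%) in aha2 against wild type, and from 3 to 6 lower (3.13% to 6.31%) and 0 to 2 higher (3.57% to 5.7%) in aha1 against aha2. Without aha1-7, 4 members lay above wild type with no overlap (16.7% of all probe sets) and 12 below (16.8%). Signs turned for GH9C3 in aha1 against wild type (-0.10 to 0.62, negative without the wild type array of the second set), GH9C2 in aha2 (-0.51 to 0.034, positive without that of the first) and XTH18 in aha2 (-0.42 to 0.00426, positive without aha2-5). Averaging probe sets of a gene changes nothing, as each member has 1.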
